A study of Homo sapiens with 30 samples.

Results

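The receptors for tumour necrosis factor (TNF) and interleukin 1 (IL-1) and the proteins that first bind to them were followed across the whole series. The members were chosen by name as the rows of the count table with the symbols TNFRSF1A, TNFRSF1B, IL1R1, IL1RAP, TRADD, TRAF2, MYD88 and IRAK1, and each symbol had 1 row, giving 8 of 63138 genes. RNA sequencing covered 30 libraries of hCMEC/D3, an immortalised endothelial line from human brain with which barrier properties are often studied, in 10 groups of 3. In the 5 direct groups the cells spent 12 h in serum-free medium alone (Control), with TNF at 25 ng/mL (TNF), with IL-1β at 10 ng/mL (IL1b), with C5a, a fragment of a complement protein, at 50 ng/mL (C5a) or with epinephrine at 200 nM (Epinephrine). In the 5 vesicle groups the same line was given extracellular vesicles (EVs) recovered from the medium of cells under each of those treatments. They are named by the treatment of the releasing cells with the prefix EV, from EV-Control to EV-Epinephrine, and the labels give 12 h for these libraries too. The doses named for vesicle groups are those given to the cells that released the vesicles. All 30 libraries come from 1 line with no genetic change named, and no source says whether the 3 libraries of a group are separate cultures, so p-values measure the spread between these libraries, which may be technical.

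TNF signals through a pair of receptors. TNFRSF1A, present on most cells, carries a death domain that binds the adaptor TRADD, which in turn brings in the ubiquitin ligase adaptor TRAF2 and the kinase RIPK1 on the way to NF-κB and MAP kinases, while TNFRSF1B has no death domain and binds TRAF2 itself. IL-1α and IL-1β bind IL1R1, which then pairs with its co-receptor IL1RAP, and the intracellular domains of both recruit the adaptor MYD88, which assembles IRAK family kinases including IRAK1. In endothelial cells both cytokines switch on leukocyte adhesion molecules and chemokines, and MYD88 also serves most Toll-like receptors.

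Sequences just upstream of the 2 TNF receptor genes are shown because these genes answered TNF differently, and the capitals mark CpG dinucleotides. They are taken from RefSeq promoter windows (250 bases before to 50 after the annotated start, assembly GRCh38.p14) and stop before the first base of any GENCODE 29 exon, which for TNFRSF1B belongs to the miRNA gene MIR7846, ahead of the first exon of TNFRSF1B itself. Windows were found for 7 of the 8 members, all but TRADD. The TNFRSF1A stretch, chr12:6342115-6342326 on the minus strand, has 212 bases, a GC content of 56.1% and 3 CpGs. The TNFRSF1B stretch, chr1:12166741-12166942 on the plus strand, has 202 bases, a GC content of 70.8% and 15 CpGs.
TNFRSF1A upstream: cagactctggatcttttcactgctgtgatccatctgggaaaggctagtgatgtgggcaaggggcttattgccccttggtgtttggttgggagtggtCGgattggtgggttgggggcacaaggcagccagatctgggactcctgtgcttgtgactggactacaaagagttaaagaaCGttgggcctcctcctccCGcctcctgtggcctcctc
TNFRSF1B upstream: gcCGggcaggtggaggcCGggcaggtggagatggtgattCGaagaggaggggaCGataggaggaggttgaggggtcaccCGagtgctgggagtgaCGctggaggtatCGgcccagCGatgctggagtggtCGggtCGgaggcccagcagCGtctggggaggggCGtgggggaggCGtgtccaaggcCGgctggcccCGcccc
Over its whole window TNFRSF1A had 4 CpGs and TNFRSF1B had 27, where the median of all listed promoters was 14. The windows of the other members had 25 in MYD88, 36 in IL1RAP, 44 in TRAF2, 52 in IRAK1 and 7, 4, 8 and 40 in IL1R1. Whether CpG content bears on the response to TNF was not tested.

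The windows were also searched on both strands for 3 motifs. The interferon-response type sequence GAAANNGAAA was present in 3.57% of the 35116 listed promoters and, among the members, in those of MYD88 and TNFRSF1B. Both rose with TNF, as did IL1R1, IL1RAP and TRAF2, whose windows had no match. Each match is shown in capitals within 30 bases, for TNFRSF1B at chr1:12166971-12167000, where the match lies on the minus strand, and for MYD88 at chr3:38138590-38138619, where it lies on the plus strand.
TNFRSF1B match: gggcgcgggcTTTCGCTTTCagtcgagggc
MYD88 match: gcgcttctcgGAAAGCGAAAgccggcgggg
The AP-1 type sequence TGANTCA was found in the IRAK1 window and in 7.71% of all promoters. The NF-κB consensus, in 5.91% of all promoters, was in none of the members' windows, and TRADD had no window to search. These matches describe the letters of a short window and say nothing about binding.

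Library totals ran from 16643961 to 22112326 counts, and each member had between 276 and 6727 counts in every library, so all 8 passed the filter on low counts in each fit. Of 12 endothelial markers 11 had a mean of at least 1 CPM (a count scaled by library size and TMM factor, the unit of level used here), whereas 1 of 8 leukocyte markers did, CD14. The summed endothelial level ran from 659 CPM in EV-C5a to 1100 in TNF, with 1040 in Control. The summed leukocyte level was lowest in TNF (1.68 CPM) and highest in EV-TNF (3.43). Summed pericyte and smooth muscle markers, 6 of 8 of them at 1 CPM or more, ran from 47.0 CPM in TNF to 120 in EV-Epinephrine. Of the astrocyte markers only 2 of 6, GFAP and GJA1, reached 1 CPM, and AQP4 was at 0 in every library. Their sum ran from 134 CPM in Control to 275 in TNF. The part of these markers in the results was not tested. In bulk RNA fewer cells of a type and less RNA per cell cannot be told apart.

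Libraries of 2 groups stood apart. EV-Control 1 had 23 genes over 1 log2 unit from the mean of the other 2 and EV-Control 3 had 19, against 0 to 5 in every other library. IRAK2, an inducible kinase of the IL-1 pathway, stood at 65.0 CPM in EV-Control 1 and at 25.2 and 17.9 in EV-Control 2 and 3. IL1R1 was also highest in EV-Control 1. By the chi-square of counts per gene the widest pairs were Epinephrine 2 with Epinephrine 1 (12.9) and with Epinephrine 3 (10.1) and EV-Control 1 with EV-Control 3 (10.1), and no other pair passed 5.96. Member tests that use EV-Control were therefore also run without EV-Control 1, and those that use Epinephrine without Epinephrine 2. Ratios, group means and the wider gene lists below are given with all libraries only.

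Per kilobase of exon, the 8 members fell into 3 tiers in unstimulated cells. TNFRSF1A (72.5 ± 2.26 CPM per kb, SD, n = 3) and IRAK1 (62.1 ± 1.28) were highest. TNFRSF1B (20.3 ± 0.274), MYD88 (17.5 ± 0.660), TRADD (13.3 ± 0.617) and TRAF2 (7.95 ± 0.394) came next. IL1RAP (3.14 ± 0.299) and IL1R1 (2.84 ± 0.292), the IL-1 receptor chains, were lowest. TNFRSF1A headed the order in 9 groups, and in TNF the first place went to MYD88 at 68.8 ± 0.621, above TNFRSF1A at 66.5 ± 2.14, with libraries of the 2 genes overlapping on this scale.

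**Figure D1:**
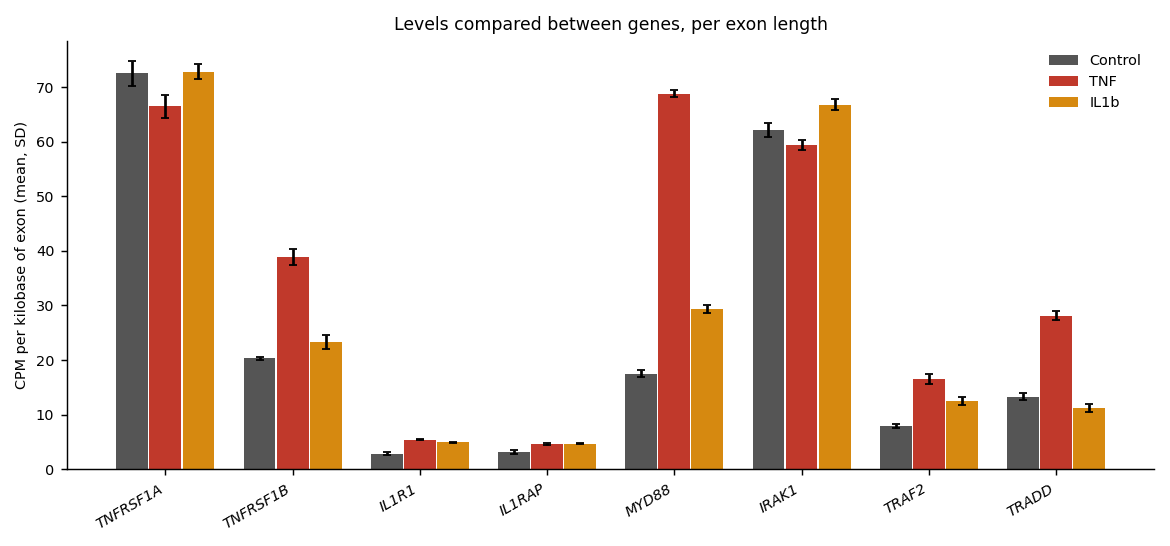
Mean level of each member in CPM per kilobase of exon (vertical axis, bars with SD, n = 3) in Control, TNF and IL1b. MYD88 rose from 17.5 in Control to 68.8 in TNF, beside 66.5 for TNFRSF1A in TNF, while IL1R1 and IL1RAP remained the lowest members.

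TNF raised 6 of the 8 members: MYD88, TRADD, TRAF2, TNFRSF1B, IL1R1 and IL1RAP. TNFRSF1A fell slightly and IRAK1 did not pass the test. The count of 7 members called stands beside 52.7% of all 15908 genes called in this comparison (edgeR's quasi-likelihood test, Benjamini-Hochberg adjusted p under 0.05), 27.5% higher and 25.3% lower. The median log2 fold change was 0.93 over the members and -0.012 over all genes tested. The levels of 8 of 8 members did not overlap between the groups, against 59.6% of all genes.

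The TNF receptors moved in opposite directions. TNFRSF1B, on chromosome 1 (12167003 to 12209228, plus strand, GENCODE 29 on GRCh38), was at 75.1, 77.1 and 76.6 CPM in Control and at 153, 142 and 144 in TNF. Every TNF library was above every Control library, and the rise was 1.92-fold (log2 0.94 ± 0.054 SE, adjusted p = 3.44e-17). TNFRSF1A, on chromosome 12 (6328757 to 6342114, minus strand), was at 301, 283 and 288 CPM in Control and at 261, 263 and 276 in TNF. The TNF libraries were all lower, by 1.09-fold (log2 -0.12 ± 0.044, adjusted p = 0.0169).

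Both chains of the IL-1 receptor rose with TNF as well. IL1R1, the ligand-binding chain, encoded on chromosome 2 (102064544 to 102179874, plus strand), went from 18, 20.3 and 22.1 CPM in Control to 38.8, 37.5 and 37.7 in TNF. With no overlap between the groups, the rise was 1.89-fold (log2 0.92 ± 0.086, adjusted p = 2.03e-11). IL1RAP, on chromosome 3 (190514051 to 190659750, plus strand), was at 39.5, 32.6 and 36.8 CPM in Control and at 55.6, 54.4 and 50.0 in TNF, a 1.47-fold rise (log2 0.55 ± 0.072, adjusted p = 3.64e-08). Of its exon length 4.63% is shared with AC108747.1 on the same strand, so a small part of its reads could belong to either.

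Among the adaptors MYD88, on chromosome 3 (38138478 to 38143022, plus strand), changed most. Its level was 73.0, 68.5 and 68.5 CPM in Control and 277, 274 and 272 in TNF, 3.92-fold higher (log2 1.97 ± 0.057, adjusted p = 4.55e-26). The highest value in the other 9 groups was 119 CPM, in IL1b. TRADD, on chromosome 16 (67154180 to 67160298, minus strand), rose 2.11-fold (log2 1.08 ± 0.071, adjusted p = 1.79e-15), from 33.7, 35.8 and 32.7 CPM to 71.0, 70.7 and 74.3. TRAF2, on chromosome 9 (136881912 to 136926607, plus strand), rose 2.08-fold (log2 1.06 ± 0.070, adjusted p = 2.37e-15), from 29.9, 30 and 27.5 CPM to 57.0, 61.3 and 63.6. Both adaptors of the TNF receptor thus had all 3 TNF libraries above all Control libraries.

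TRADD shares 4.91% of its exon length with FBXL8, an F-box gene on the opposite strand, and the counting is not stated to use strand. FBXL8 stood at 10.6 ± 0.971 CPM in TNF and 9.19 ± 0.557 in Control, with a log2 fold change of 0.20 (adjusted p = 0.219). The part of FBXL8 in the TRADD value with TNF was not tested.

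IRAK1, the kinase encoded on chromosome X (154010500 to 154019980, minus strand), was at 254, 244 and 247 CPM in Control and at 237, 234 and 241 in TNF. The TNF libraries lay below the Control libraries, and the log2 fold change was -0.06 ± 0.041 (adjusted p = 0.195).

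The scaling of TNF libraries bears on the small values. In the fit of the direct groups their normalization factors were 0.860 to 0.879, against 0.991 to 1.06 in the other direct libraries. In the fit of all 30 libraries they were 0.842 to 0.861, against 0.974 to 1.05 in all others. With library totals alone the median over all genes for TNF against Control shifted to -0.29, and the share of calls that were higher fell from 52.1% to 22.7%. With that scaling the 6 rises ranged from 0.28 (IL1RAP) to 1.69 (MYD88) and all were called, while TNFRSF1A was at -0.40 (adjusted p = 5.01e-10) and IRAK1 at -0.34 (adjusted p = 6.48e-09). The TNFRSF1A call was lost without Control 1, TNF 1 or TNF 2 (adjusted p = 0.0655 to 0.117).

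**Figure D2:**
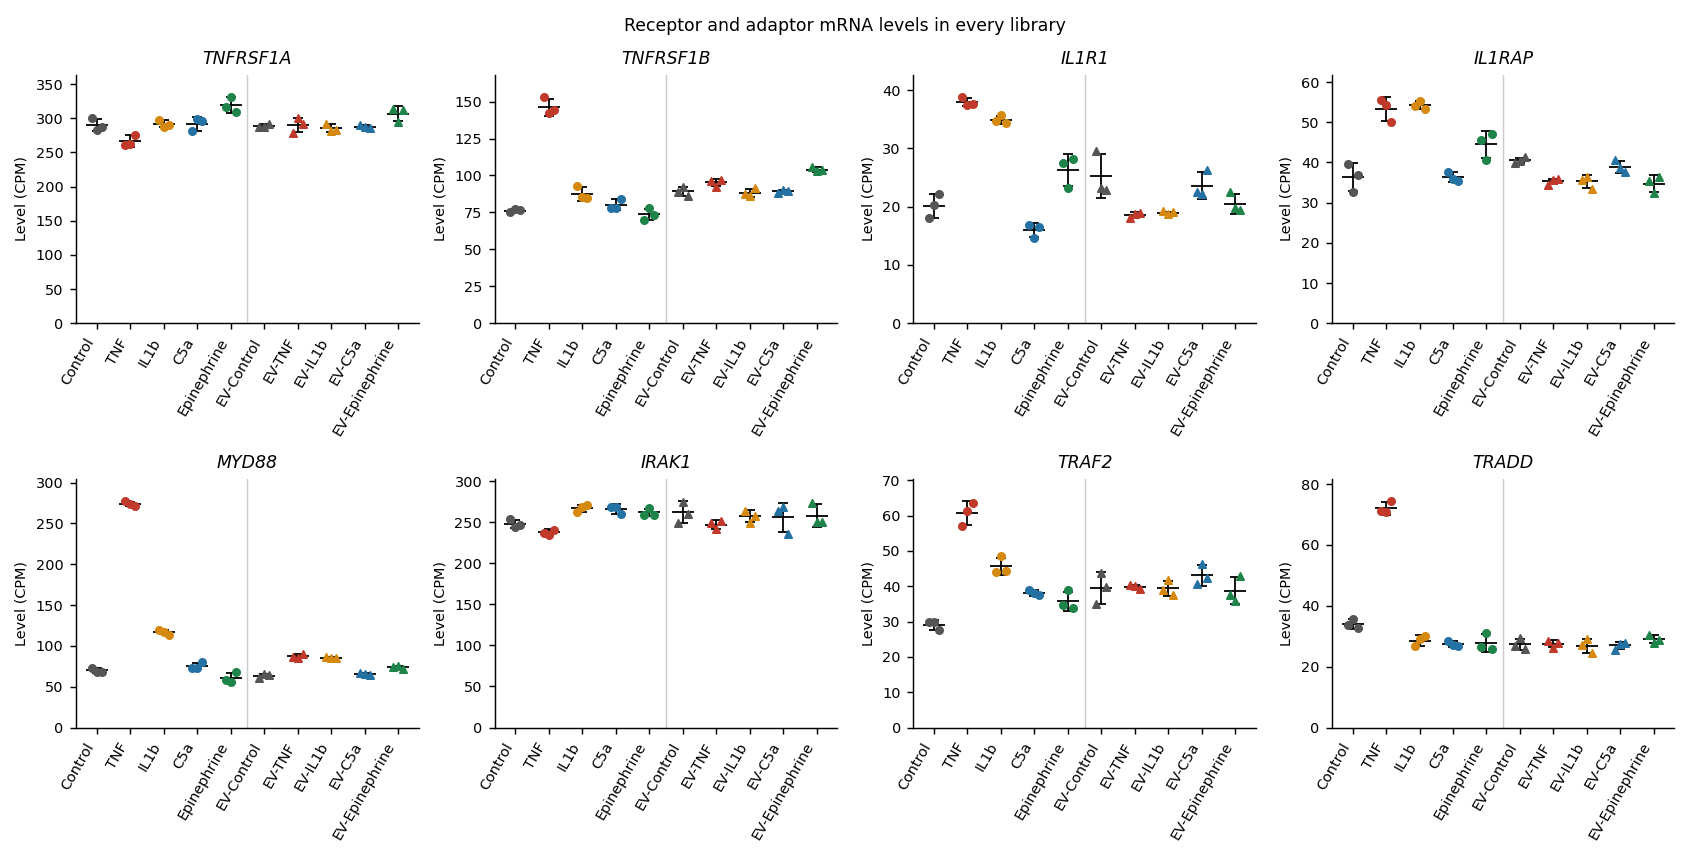
Level of each member in CPM (vertical axes, from 0) in every library of the 10 groups (circles, direct; triangles, vesicle; horizontal bar and whiskers, mean and SD, n = 3). TNF libraries stand above all others for TNFRSF1B, MYD88 and TRADD, and IRAK1 stays between 234 and 275 CPM in all 30 libraries.

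IL-1β raised IL1R1, MYD88, TRAF2, IL1RAP, TNFRSF1B and IRAK1 and lowered TRADD, while TNFRSF1A was not called. The 7 members called stand beside 46.6% of all genes (24.0% higher and 22.6% lower), and 7 members had groups that did not overlap, beside 56.3%. The median log2 fold change of the members was 0.39, against -0.011 for all genes. IL1R1 was at 34.7, 35.7 and 34.3 CPM in IL1b, all above the 18 to 22.1 of Control, a 1.74-fold rise (log2 0.80 ± 0.085, adjusted p = 8.83e-10). IL1RAP reached 54.0, 55.2 and 53.2 CPM, 1.5-fold above Control (log2 0.58 ± 0.071, adjusted p = 1.59e-08). The receptor for IL-1 was thus higher in both of its chains after 12 h of its own ligand.

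MYD88 was at 119, 117 and 114 CPM in IL1b, 1.68-fold above Control (log2 0.75 ± 0.057, adjusted p = 3.18e-13). TRAF2 was at 44.1, 48.5 and 44.4 CPM, 1.58-fold above Control (log2 0.66 ± 0.071, adjusted p = 1.28e-09). TRADD went the other way, with 26.7, 29.1 and 30.2 CPM, 1.18-fold below Control (log2 -0.24 ± 0.075, adjusted p = 0.00826). All 3 libraries were below the lowest Control library at 32.7. FBXL8, which overlaps TRADD, also fell, by 1.55-fold (log2 -0.63 ± 0.15, adjusted p = 0.000464), and its part in the TRADD value was not tested.

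The remaining values with IL-1β were small. TNFRSF1B stood at 92.9, 85.1 and 84.9 CPM, 1.16-fold above Control (log2 0.21 ± 0.054, adjusted p = 0.00179), and IRAK1 at 263, 268 and 271 CPM, 1.08-fold above (log2 0.11 ± 0.041, adjusted p = 0.0220). TNFRSF1A overlapped with Control, with a log2 fold change of 0.01 ± 0.044 (adjusted p = 0.810). With library totals the split of all calls moved from 51.5% to 38.6% higher, and TNFRSF1B (0.13, adjusted p = 0.0549) and IRAK1 (0.03, adjusted p = 0.543) were no longer called. IRAK1 was also lost without the low-count filter (adjusted p = 0.0754) or without Control 2, Control 3, IL1b 2 or IL1b 3 (0.0513 to 0.0900), and TRADD without Control 2 or IL1b 1 (0.0527 to 0.0684).

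Set directly against each other, the 2 cytokines differed in 6 members, beside 41.4% of all genes (19.9% higher and 21.4% lower), with 7 members not overlapping beside 51.5%. IL1b was lower than TNF by 2.50-fold in TRADD (log2 -1.32 ± 0.072, adjusted p = 1.93e-17), by 2.33-fold in MYD88 (-1.22 ± 0.055, 7.24e-20), by 1.66-fold in TNFRSF1B (-0.73 ± 0.053, 5.86e-14) and by 1.32-fold in TRAF2 (-0.40 ± 0.067, 6.81e-06). It was higher in IRAK1 (0.18 ± 0.041, adjusted p = 0.000587) and TNFRSF1A (0.14 ± 0.044, adjusted p = 0.0101), the latter lost without TNF 1 or IL1b 1 (0.0514 to 0.0553). For the IL-1 receptor chains no difference was called: IL1R1 differed by -0.11 ± 0.081 (adjusted p = 0.279) and IL1RAP by 0.03 ± 0.070 (adjusted p = 0.753). With library totals the median of all genes in this comparison moved to 0.21, the share of higher calls from 48.1% to 76.1%, and IL1RAP was called at 0.22 (adjusted p = 0.00646).

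C5a and epinephrine act through G protein-coupled receptors. With C5a 3 members were called, beside 22.6% of all genes (11.8% higher and 10.8% lower), and 5 did not overlap, beside 40.4%. TRAF2 rose to 38.9, 38.1 and 37.4 CPM, above the highest Control library at 30 (log2 0.40 ± 0.072, adjusted p = 7.28e-05). TRADD fell to 28.5, 27.0 and 26.9 CPM (-0.30 ± 0.075, adjusted p = 0.00309). IL1R1 was lowest of all groups with C5a, at 16.8, 14.6 and 16.5 CPM, each below every Control library (-0.32 ± 0.092, adjusted p = 0.00865), and this call was lost without Control 3 or C5a 2 (0.0755 and 0.0723). IRAK1, at 0.11 ± 0.041, did not pass (adjusted p = 0.0552), but it was called with library totals (0.0323), DESeq2 (0.0429) and a fit of only C5a and Control (0.0194). The members' median was 0.05 and that of all genes -0.0015.

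Epinephrine changed 6 members, beside 25.2% of all genes (13.5% higher and 11.8% lower), and 7 did not overlap, beside 33.9%. IL1R1 was at 27.5, 23.2 and 28.2 CPM (log2 0.40 ± 0.087, adjusted p = 0.000637) and IL1RAP at 45.7, 40.7 and 47.1 CPM (0.30 ± 0.072, adjusted p = 0.00151), so both IL-1 receptor chains were above all Control libraries. TRAF2 rose by 0.30 ± 0.072 (adjusted p = 0.00165) to 34.6, 38.9 and 33.8 CPM, and TRADD fell by 0.29 to 26.5, 31.0 and 25.7 CPM (adjusted p = 0.00393). TNFRSF1A had its highest level here, at 316, 331 and 309 CPM (0.14 ± 0.044, adjusted p = 0.0138), and MYD88 its lowest, at 58.3, 56.2 and 68.3 CPM (-0.19 ± 0.059, adjusted p = 0.0179). TNFRSF1B (-0.04) and IRAK1 (0.08) were not called (adjusted p = 0.663 and 0.138). The TNFRSF1A call was lost without Control 2 (0.0823) and in a fit of only these 2 groups (0.101), and the MYD88 call without Control 1, Epinephrine 1 or Epinephrine 2 (0.0758 to 0.125) and in that fit (0.0863). Without Epinephrine 2 the other 5 calls held, with log2 fold changes of 0.48 in IL1R1, 0.37 in IL1RAP, 0.24 in TRAF2, -0.37 in TRADD and 0.12 in TNFRSF1A, and MYD88 was at -0.13 (adjusted p = 0.0819).

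**Figure D3:**
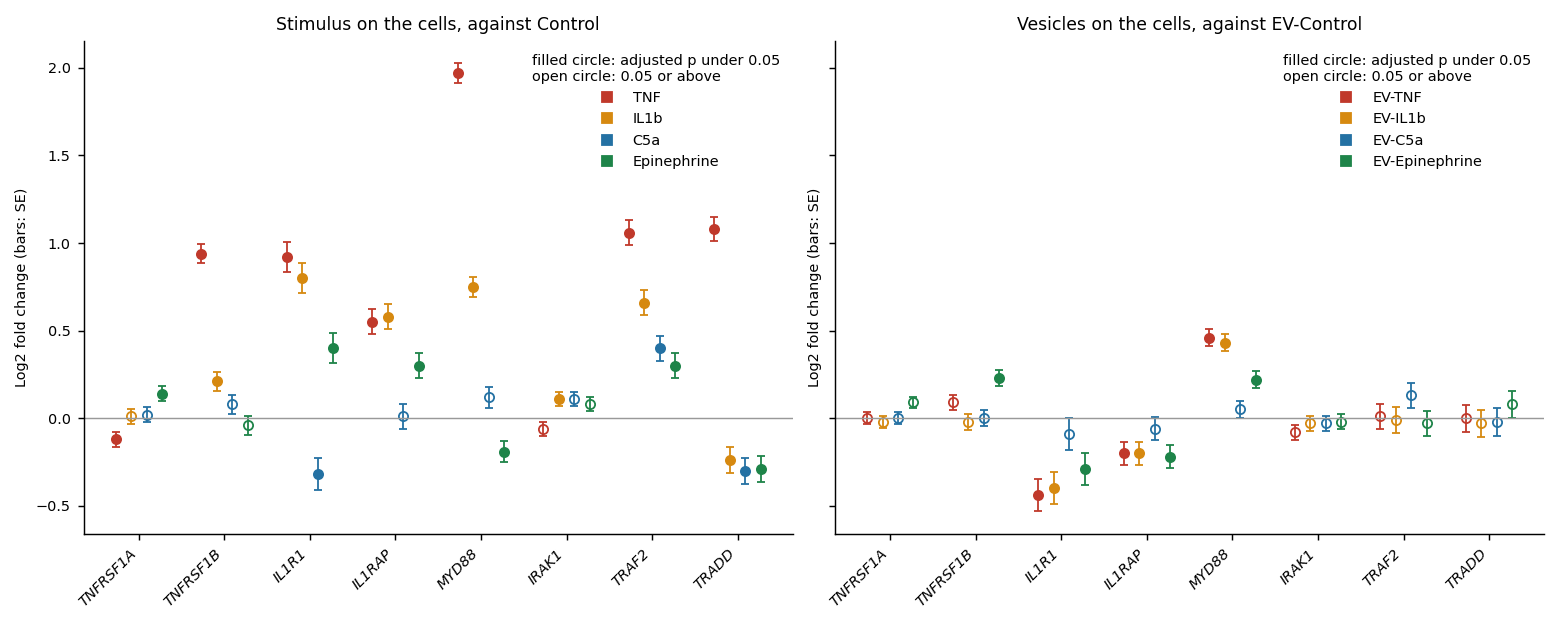
Log2 fold change with SE of each member for the 4 stimuli against Control (left) and the 4 stimulus-derived vesicle treatments against EV-Control (right). Filled circles mark an adjusted p under 0.05, among them MYD88 at 1.97 with TNF and at 0.46 with EV-TNF, and IL1R1 at 0.92 with TNF and at -0.44 with EV-TNF.

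Ratios of 2 members within a library need no scaling between libraries, and they are given as descriptions. TRADD reads per TRAF2 read were 1.12, 1.19 and 1.19 in Control and 1.24, 1.15 and 1.17 in TNF, so the pair kept its proportion between these groups while both levels rose. In the other 8 groups every library lay between 0.594 and 0.812. In all of those groups mean TRADD was below and mean TRAF2 above Control, the vesicle control included, whose ratios were 0.773, 0.673 and 0.652. The comparisons behind this share the 3 Control libraries.

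TNFRSF1B reads per TNFRSF1A read rose from 0.250, 0.273 and 0.266 in Control to 0.586, 0.542 and 0.521 in TNF. In the IL1b libraries the ratio was 0.312, 0.296 and 0.293, and over all libraries outside TNF it stayed at or under 0.348. The ratio of MYD88 to IRAK1 was 0.282 ± 0.00504 (SD, n = 3) in Control, 1.15 ± 0.0246 in TNF and 0.438 ± 0.0175 in IL1b. Among the vesicle groups it was 0.242 ± 0.00525 in EV-Control, 0.353 ± 0.00619 in EV-TNF and 0.333 ± 0.00919 in EV-IL1b, without overlap with EV-Control. IL1R1 reads per IL1RAP read went from 0.456, 0.624 and 0.6 in Control to 0.697, 0.690 and 0.754 in TNF, and the 3 C5a libraries, at 0.444, 0.406 and 0.465, were at the low end.

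**Figure D4:**
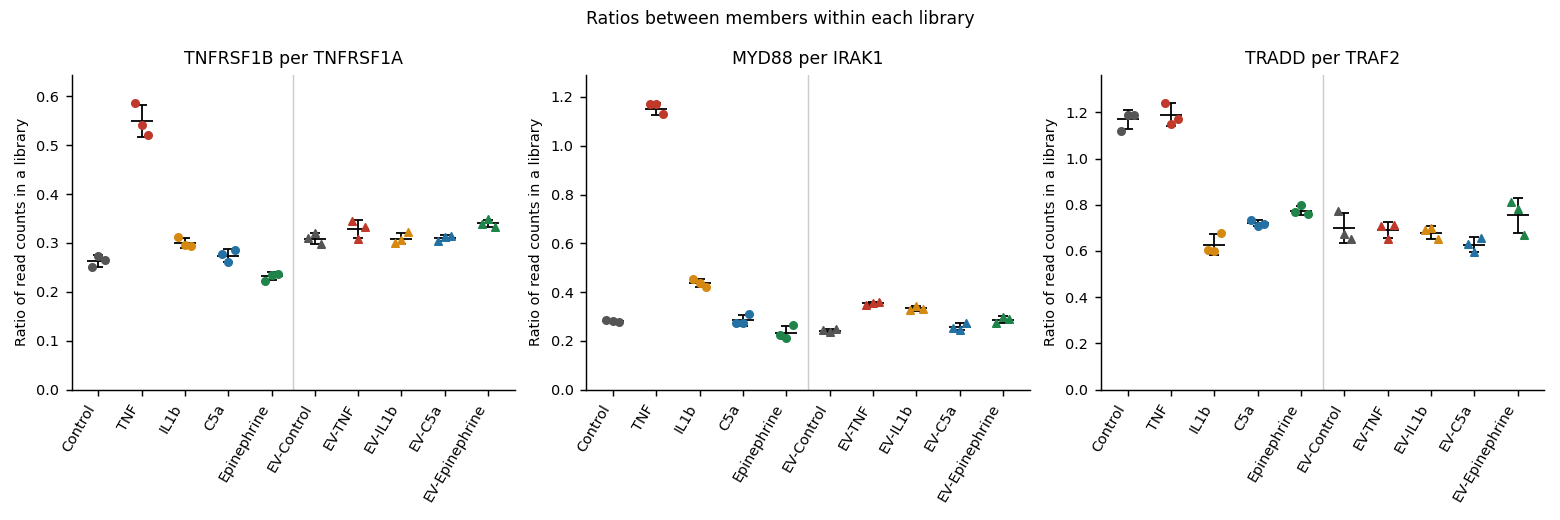
Ratio of read counts of 2 members within each library (vertical axes, from 0) for the 10 groups, with mean and SD (n = 3). TRADD per TRAF2 is at 1.12 or more in every Control and TNF library and at 0.812 or less in every other library, whereas the other 2 ratios are highest in TNF.

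Between EV-Control and Control, which differ in whether the cells received vesicles of unstimulated cells, 5 members were called, beside 21.9% of all genes (12.1% higher and 9.8% lower), and 6 did not overlap, beside 34.9%. TRAF2 was at 34.9, 43.8 and 39.8 CPM in EV-Control (log2 0.44 ± 0.075, adjusted p = 6.77e-06) and TRADD at 26.9, 29.4 and 25.9 (-0.31 ± 0.076, adjusted p = 0.00131). TNFRSF1B was at 89.0, 92.3 and 86.4 CPM (0.23 ± 0.050, adjusted p = 0.000359). These 3 calls held without EV-Control 1, where TRAF2 was at 0.53, TRADD at -0.29 and TNFRSF1B at 0.24. IL1R1 (0.32, adjusted p = 0.00690) was lost without EV-Control 1 (0.20, 0.168) or Control 1 (0.0792). MYD88 (-0.14, adjusted p = 0.0456) was lost without any one of the 6 libraries (0.0589 to 0.267) and with DESeq2 (0.0601). IL1RAP (0.16, adjusted p = 0.0921) was called only without Control 1 (0.23, 0.0263). With library totals the share of higher calls among all genes moved from 55.3% to 42.6%, and the members again had 3 higher and 2 lower.

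Vesicles of TNF-treated and of IL-1β-treated cells gave the same 3 member calls against EV-Control: MYD88 rose and IL1R1 and IL1RAP fell. The background was 13.3% of all 15918 genes for EV-TNF (5.9% higher and 7.42% lower) and 14.6% for EV-IL1b (6.49% higher and 8.14% lower). These comparisons share the EV-Control libraries. MYD88 was at 60.4, 65.3 and 64.3 CPM in EV-Control. It was at 86.0, 85.4 and 90.2 in EV-TNF, 1.37-fold higher (log2 0.46 ± 0.049, adjusted p = 1.47e-10), and at 86.4, 85.8 and 84.9 in EV-IL1b, 1.35-fold higher (0.43 ± 0.049, adjusted p = 1.00e-09). Every library of both groups was above every EV-Control library, and without EV-Control 1 the values were 0.43 (adjusted p = 3.39e-09) and 0.40 (adjusted p = 2.30e-08).

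IL1R1 was at 29.5, 23.2 and 22.8 CPM in EV-Control and lower in both vesicle groups, at 18.1, 18.8 and 18.9 in EV-TNF and at 19.2, 18.8 and 19.1 in EV-IL1b. The log2 fold changes were -0.44 ± 0.092 (adjusted p = 0.000418) and -0.40 ± 0.092 (adjusted p = 0.00126). Without EV-Control 1 they were -0.31 (adjusted p = 0.0256) and -0.27 (adjusted p = 0.0552), so the EV-IL1b call was lost. IL1RAP was at 39.8, 40.4 and 41.3 CPM in EV-Control, at 34.5, 35.6 and 35.8 in EV-TNF and at 35.7, 36.5 and 33.5 in EV-IL1b. Its changes were -0.20 ± 0.066 in both (adjusted p = 0.0313 and 0.0298), with no overlap of libraries. The EV-TNF call was lost without EV-Control 2, EV-Control 3 or any EV-TNF library (0.0576 to 0.109), and the EV-IL1b call without EV-Control 2, EV-Control 3, EV-IL1b 1 or EV-IL1b 3 (0.0600 to 0.148); both were lost when only the groups compared were fitted (0.0628 and 0.0581). The EV-TNF call was also lost with library totals (0.0507) and without the filter on low counts (0.0551). EV-Control, the reference here, had higher means than Control in both chains. Mean IL1R1 was 20.1 CPM in Control, 25.2 in EV-Control and 18.6 in EV-TNF, and mean IL1RAP was 36.3, 40.5 and 35.3. Libraries of EV-TNF and Control overlapped in both chains, and these 2 groups were not tested against each other.

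TNFRSF1A, TNFRSF1B, TRADD, TRAF2 and IRAK1 were not called with either kind of vesicle. Their log2 fold changes ran from -0.08 (IRAK1, EV-TNF) to 0.09 (TNFRSF1B, EV-TNF), and the lowest adjusted p was 0.186. For EV-TNF 4 members did not overlap with EV-Control, beside 27.1% of all genes, the fourth being TNFRSF1B at 96.4, 92.5 and 97.1 CPM. For EV-IL1b 3 did not, beside 28.5%. TRADD, which rose 2.11-fold with TNF itself, was at 28.6, 26.2 and 27.9 CPM in EV-TNF, a log2 fold change of 0.00 ± 0.078 (adjusted p = 0.983).

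Vesicles of epinephrine-treated cells changed 4 members, beside 19.7% of all genes (9.12% higher and 10.5% lower), and 5 did not overlap, beside 34.1%. TNFRSF1B rose to 106, 103 and 104 CPM, above every group but TNF (log2 0.23 ± 0.045, adjusted p = 0.000142), and MYD88 to 74.5, 74.9 and 72.2 (0.22 ± 0.050, adjusted p = 0.000625). Both held without EV-Control 1 (0.22 and 0.19). IL1R1 fell to 22.5, 19.7 and 19.4 CPM (-0.29 ± 0.092, adjusted p = 0.0182) and IL1RAP to 35.3, 32.4 and 36.5 (-0.22 ± 0.066, adjusted p = 0.0113). Their means in EV-Epinephrine, 20.5 and 34.7 CPM, lay near those of Control, 20.1 and 36.3. IL1R1 was lost without EV-Control 1 (-0.16), EV-Epinephrine 2 or EV-Epinephrine 3 (0.0844 to 0.290), and IL1RAP without EV-Epinephrine 2 (0.102). TNFRSF1A, at 0.09 (adjusted p = 0.0531), was called without EV-Epinephrine 2 (0.0285) and with library totals (0.12, 0.00532), a scaling that moved the share of higher calls among all genes from 46.4% to 60.2%.

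Vesicles of C5a-treated cells gave 0 member calls by edgeR's quasi-likelihood test, 0 at an unadjusted p under 0.05 and 0 with DESeq2, beside 0.0503% of all genes called (0.0126% higher and 0.0377% lower). All 8 members overlapped with EV-Control, where 10.9% of all genes did not, and log2 fold changes ran from -0.09 (IL1R1) to 0.13 (TRAF2). Without EV-Control 1 the count was again 0.

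Whether the vesicle response differed from the direct response to the same stimulus was tested as the difference itself in a fit of all 30 libraries (16691 genes). For TNF 7 members differed, beside 44.7% of all genes (21.3% higher and 23.4% lower). In 6 of them the log2 fold change was lower with vesicles than with TNF itself. In TNFRSF1A it was higher because of a small direct fall, with -0.12 for TNF and 0.00 for EV-TNF. The differences were -1.51 ± 0.073 in MYD88 (adjusted p = 1.32e-26), -1.35 ± 0.13 in IL1R1 (5.66e-14), -1.07 ± 0.10 in TRADD (1.80e-13), -1.05 ± 0.10 in TRAF2 (3.34e-13), -0.84 ± 0.069 in TNFRSF1B (2.08e-16) and -0.75 ± 0.096 in IL1RAP (9.95e-10). TNFRSF1A differed by 0.13 ± 0.055 (adjusted p = 0.0458), a call lost without 9 of the 12 libraries concerned (Control 1 and 3, TNF 1 and 2, all 3 EV-Control, EV-TNF 2 and 3; 0.0511 to 0.154). IRAK1, at -0.02 (adjusted p = 0.851), turned to 0.27 (adjusted p = 0.000102) with library totals, which shifted the median over all genes to 0.31 and the share of higher calls from 47.7% to 76.7%. Without EV-Control 1 the 6 lower members were again called and TNFRSF1A was not (0.12, 0.0868).

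For IL-1β 5 members differed, beside 35.2% of all genes (16.9% higher and 18.3% lower): IL1R1 by -1.19 ± 0.13 (adjusted p = 1.36e-11), IL1RAP by -0.78 ± 0.096 (1.03e-09), TRAF2 by -0.65 ± 0.10 (7.25e-07), MYD88 by -0.31 ± 0.074 (0.000688) and TNFRSF1B by -0.21 ± 0.070 (0.0117). IL1R1 and IL1RAP are the members called in both comparisons with opposite signs, while MYD88 rose with both. The 2 receptor chains were raised by IL-1β against Control and lower with EV-IL1b against EV-Control. Mean IL1R1 was 19.0 CPM in EV-IL1b, 25.2 in EV-Control and 20.1 in Control. For IL1RAP the means were 35.3, 40.5 and 36.3, so EV-IL1b lay near Control in both. The EV-IL1b call was lost in 1 of 6 left-out fits for IL1R1 and in 4 of 6 for IL1RAP. With library totals the median of all genes moved to 0.11, the share of higher calls from 48.1% to 62.4%, TNFRSF1B was lost (-0.13, 0.152) and TRADD was called (0.31, 0.0225). Without EV-Control 1 the 5 calls held and IRAK1 joined them (-0.17, 0.0263), as it did without EV-IL1b 1 (0.0454).

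For epinephrine 6 members differed, beside 24.2% of all genes (11.7% higher and 12.5% lower). The vesicle response was lower in IL1R1 (-0.68 ± 0.13, adjusted p = 3.17e-05), IL1RAP (-0.52 ± 0.096, 2.28e-05) and TRAF2 (-0.32 ± 0.11, 0.0181). It was higher in MYD88 (0.42 ± 0.076, adjusted p = 1.44e-05), TRADD (0.38 ± 0.11, 0.00528) and TNFRSF1B (0.27 ± 0.070, 0.00194). All 6 were called without EV-Control 1, and TRAF2 was lost without Control 3, Epinephrine 2, EV-Control 2 or EV-Epinephrine 2 (0.0526 to 0.0967). Without Epinephrine 2 the other 5 differences held, at -0.77 in IL1R1, -0.58 in IL1RAP, 0.36 in MYD88, 0.46 in TRADD and 0.30 in TNFRSF1B, and TRAF2 was at -0.27 (adjusted p = 0.0528). For C5a 0 members differed by edgeR's quasi-likelihood test, beside 11.9% of all genes (5.87% higher and 6.05% lower), with 3 at an unadjusted p under 0.05 and 0 by DESeq2. Without EV-Control 1 TRAF2 (-0.36, adjusted p = 0.0160) and IRAK1 (-0.18, 0.05) were called, and TRAF2 also without EV-C5a 2 (0.0389).

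**Figure D5:**
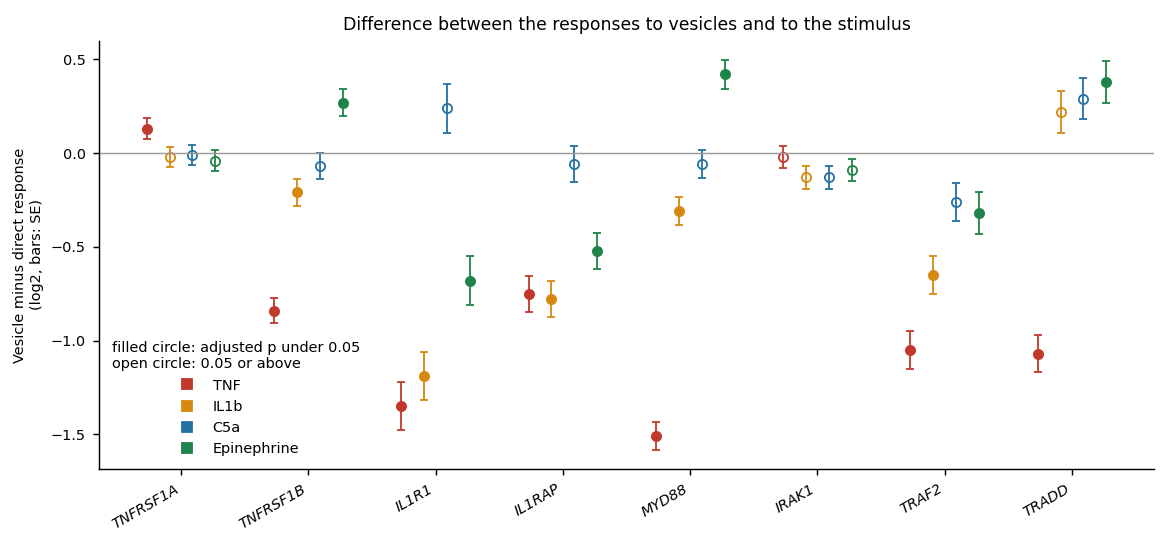
Vesicle response minus direct response of each member (log2, with SE) for the 4 stimuli, from the fit of all 30 libraries. Filled circles mark an adjusted p under 0.05. For TNF the differences reach -1.51 in MYD88, and for epinephrine MYD88, TRADD and TNFRSF1B lie above 0.

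Across the 10 groups the members differed in how far they ranged. Group means of MYD88 spanned 4.5-fold, those of TRADD 2.68-fold, IL1R1 2.38-fold, TRAF2 2.08-fold, TNFRSF1B 1.98-fold and IL1RAP 1.56-fold, whereas TNFRSF1A spanned 1.20-fold and IRAK1 1.12-fold. Steps between neighbouring groups, here and in the next paragraph, are descriptions only. The groups were sorted by the same levels, and no share of such steps over all genes was computed. When groups are ordered by level, MYD88 runs TNF, IL1b, EV-TNF, EV-IL1b, C5a, EV-Epinephrine, Control, EV-C5a, EV-Control and Epinephrine, and neighbours did not overlap at 4 of 9 steps: below TNF, IL1b, EV-IL1b and Control. IL1R1 runs TNF, IL1b, Epinephrine, EV-Control, EV-C5a, EV-Epinephrine, Control, EV-IL1b, EV-TNF and C5a, with 3 steps lacking overlap, below TNF, IL1b and EV-TNF. IL1RAP has 1 such step, below the pair IL1b and TNF. For TRADD they are those below TNF and below Control, and the 8 other groups, from 29 to 26.8 CPM, could not be told apart in order.

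TNFRSF1B had 5 steps without overlap, and its lowest groups were Control at 76.3 ± 1.03 CPM (SD, n = 3) and Epinephrine at 73.8 ± 3.82. TRAF2 had 3, with TNF at 60.7 ± 3.33 on top and Control at 29.1 ± 1.45 below every other group. TNFRSF1A and IRAK1 each had 1, the step down to TNF, their lowest group.

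By Pearson's r over the 10 group means, with 10546 genes compared, the patterns most like that of MYD88 were those of SAMD9L (0.997), TRIM5 (0.996) and TDRD7 (0.996). Those most like TRADD were AP1B1 (0.992), RAB13 (0.988) and SCARF1 (0.988), and those most like IL1R1 were GAREM1 (0.968), HIF1A (0.966) and CHSY1 (0.963). The 10 points share libraries and scaling, and the TNF group stands far from the rest for MYD88 and TRADD, so these values are descriptions with no test.

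A wider set of 49 genes in 4 lists placed the members among their partners. With TNF 31 of the 46 tested were higher and 3 lower, beside 27.5% and 25.3% of all genes. With IL-1β 25 were higher and 4 lower (24.0% and 22.6% of all genes), with epinephrine 10 and 6 (13.5% and 11.8%) and with C5a 6 and 10 (11.8% and 10.8%). Their median log2 fold changes were 0.51, 0.24, 0.02 and -0.05. In the vesicle groups 45 were tested, and 2 were higher and 9 lower with EV-TNF (5.9% and 7.42% of all genes), 2 and 8 with EV-IL1b (6.49% and 8.14%) and 5 and 12 with EV-Epinephrine (9.12% and 10.5%). Between EV-Control and Control 46 were tested, and 12 were higher and 3 lower in EV-Control (12.1% and 9.8% of all genes). All these counts include EV-Control 1 and Epinephrine 2 where their groups are compared.

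Of 16 partners of the TNF receptor complex 12 rose with TNF and none fell, and 10 rose with IL-1β, beside 27.5% and 24.0% of all genes higher. TRAF1, a TRAF2-binding adaptor, went from 8.93 ± 0.494 to 381 ± 6.59 CPM (SD, n = 3) with TNF. BIRC3, a ubiquitin ligase that TRAF2 recruits, went from 28.4 ± 1.58 to 679 ± 35.9. Their log2 fold changes, 5.41 and 4.58 (adjusted p = 5.58e-36 and 1.09e-15), exceeded those of all 8 members, and with IL-1β they were 2.29 and 2.05. With C5a TNFAIP3, the ubiquitin-editing enzyme A20, fell by 1.70 (adjusted p = 0.000286), and with epinephrine it rose by 2.05 (adjusted p = 1.98e-05).

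Of 12 partners of the IL-1 receptor complex 5 rose and 3 fell with TNF, beside 27.5% and 25.3% of all genes, and 4 rose and 4 fell with IL-1β, beside 24.0% and 22.6%. IRAK2 rose by 3.21 with TNF (adjusted p = 3.79e-28) and by 1.81 with IL-1β (1.50e-19), and IRAK3, a kinase-dead IRAK that restrains the pathway, by 0.95 and 1.11 (6.73e-16 and 2.55e-17). SIGIRR, a receptor that dampens IL-1 signalling, fell by 1.08 and 0.89 (2.05e-10 and 1.56e-08). The IRAK family members IRAK2 and IRAK3 thus rose with both cytokines, where IRAK1 had values of -0.06 and 0.11. IRAK4 was at 25.0 ± 2.52 CPM in Control, 23.3 ± 2.24 in TNF and 21.8 ± 1.38 in IL1b (SD, n = 3).

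Of 12 shared downstream kinases and adaptors 8 rose with TNF and 7 with IL-1β (27.5% and 24.0% of all genes), TAB2 by 0.66 and 0.29 (adjusted p = 4.46e-14 and 7.79e-06), and none fell with either. Among 9 ligands, decoys and sheddases, 6 were tested in the direct groups and all 6 rose with TNF, beside 27.5% of all genes. IL1B rose by 4.21 with TNF (adjusted p = 7.59e-10), from 19.4 ± 4.30 to 358 ± 61.8 CPM, by 2.82 with IL-1β (5.30e-08) and by 2.06 with epinephrine (3.94e-06), and it fell by 1.21 with C5a (0.00181). The decoy receptor IL1R2 had at most 2 counts in any library and the TNF gene at most 24, and both were removed by the filter in the direct groups. In EV-Control IL1B stood at 72.6 ± 6.01 CPM, above the 19.4 ± 4.30 of Control. The other vesicle groups were at 72.8 ± 7.39 in EV-C5a, 45.8 ± 3.45 in EV-IL1b, 43.6 ± 5.18 in EV-TNF and 22.5 ± 1.65 in EV-Epinephrine.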

How the data were processed

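The authors deposited 1 table of read counts for Ensembl genes in 30 libraries, not normalized, per the file header and values. The submitters' processing notes name FastQC, STAR, DESeq2, R 4.4.1 and the build hg38, with no roles. The counting program, annotation and use of strand are not given in the sources used here. All libraries carry 1 batch number in the labels. Of 63147 lines 63138 genes were kept, after 4 lines without an ID (0.000789% to 0.00164% of a library's counts), 2 IDs without counts and 3 repeats were left out.

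Counts were tested with edgeR 4.0.16 in R 4.3.3: filterByExpr, TMM factors, robust quasi-likelihood fits, 2-sided, Benjamini-Hochberg adjustment over all genes of a fit, threshold 0.05. The direct groups (15 libraries, 15908 genes), the vesicle groups (15, 15918 genes) and all 30 libraries (16691 genes) had 1 fit each. Only the direct fit was also run on simulated counts, for TNF and C5a against Control. CPM use the factors of the 30-library fit. Exon lengths and positions are those of GENCODE 29 (GRCh38), which may not be the annotation counted. No molecular identifiers are described, so the precision may be limited by more than counting error. Replicate pairs differed by a chi-square of 2.04 to 12.9 per gene, so no library was a copy.

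Alternatives were relative log expression factors, library totals, no low-count filter, DESeq2 1.42.0, only the groups compared, a replicate block and each library left out. The members and lists were chosen with earlier results of these data known. All members are named in each comparison. From each list up to 2 called genes per direction with the largest change and a mean of at least 5 CPM could be named for each stimulus, and other list genes named here were chosen after their values were seen. For the 3 members with the widest range, the 3 genes of highest Pearson correlation over group means are named. The member ratios and the promoters printed were also chosen after the values were seen.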

Additional observations from a re-analysis of the deposited data

Results flagged for a closer look

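The response to vesicles differed from the direct response to the same stimulus, by edgeR's test of that difference, in 18 of the 32 member tests over the 4 stimuli, beside 44.7% of all genes for TNF, 35.2% for IL-1β, 24.2% for epinephrine and 11.9% for C5a. Each value is the vesicle minus the direct log2 response. For TNF it was -1.51 in MYD88, -1.35 in IL1R1, -1.07 in TRADD, -1.05 in TRAF2, -0.84 in TNFRSF1B, -0.75 in IL1RAP and 0.13 in TNFRSF1A (adjusted p from 1.32e-26 to 0.0458). For IL-1β it was -1.19 in IL1R1, -0.78 in IL1RAP, -0.65 in TRAF2, -0.31 in MYD88 and -0.21 in TNFRSF1B. For epinephrine it was -0.68 in IL1R1, -0.52 in IL1RAP and -0.32 in TRAF2, and 0.42 in MYD88, 0.38 in TRADD and 0.27 in TNFRSF1B.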

How the results depend on the processing

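Of 1536 alternative values, 1451 stayed on their side of the threshold, 49 of them with the other sign and not called in either fit. A further 69 lost the call, 15 gained one and 1 turned with a call. The one that turned was IRAK1 in the TNF vesicle minus direct response, from -0.02 to 0.27 with library totals. Of 62 member calls 46 held with every library left out in turn. Left-out libraries gave 3 to 4 members for EV-Control against Control, where 5 were called with all libraries, the lowest without EV-Control 1, and 0 to 2 for the C5a vesicle minus direct response, where 0 were called, with 2 without EV-Control 1 and 1 without EV-C5a 2. The ranges were 6 to 7 for TNF, 5 to 7 for IL1b, 2 to 3 for C5a, 5 to 6 for Epinephrine and 2 to 3 for EV-TNF and EV-IL1b. The 8 genes called for EV-C5a over the whole table became 5 with library totals, 73 without the filter, 3 with only those groups and 2 to 175 with a library left out, the highest without EV-Control 3. Same-numbered libraries of different groups had a median correlation of 0.000217 (-0.0539 to 0.0608 over 135 pairs), and 7 of 30 correlated best with their own number, so the numbers were not taken as a pairing. With the replicate block TNFRSF1A in the TNF vesicle minus direct response was lost (0.13, adjusted p = 0.0536), and no other member call changed.

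Each group has 3 libraries of 1 cell line, so spread between donors was not measured. Where TNF is compared, small values depend on the scaling. TRADD and FBXL8 share sequence on opposite strands, and mRNA levels say nothing of receptor protein at the surface.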
